A study of Mus musculus with 10 samples.

Results

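The subcortical maternal complex is a protein assembly that lies beneath the surface of the mouse egg and early embryo. Its 6 genes examined here were Nlrp5 (also called Mater), Ooep (Floped), Tle6, Khdc3 (Filia), Padi6 and Zbed3. They were taken by gene name from 21437 genes with FPKM values, and all 6 had a row. FPKM scales the fragments of a gene to the length of its exons and to the mapped total of the library, so levels can be compared between genes. All 6 also reached 1 FPKM in 2 or more of the 10 libraries, the filter for testing, which 8726 genes passed.

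The proteins of the complex are made in the growing oocyte, persist through the cleavage stages and are inherited by the embryo from the mother. Embryos of mothers that lack Nlrp5, Ooep or Tle6 stop at early cleavage, which makes these classical maternal-effect genes. The mRNAs belong to the maternal stock that the embryo clears while it turns on its own genome.

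RNA-seq had been done on 5 groups of 2 libraries, numbered in the labels as replicates 1 and 2. These were MII oocytes (eggs arrested in the second meiotic division), middle 2-cell embryos as control or Ago2 kd, and early 4-cell embryos as control or Ago2 kd. Collection was at 16, 40 and 55 h after hCG, the hormone that triggers ovulation, and the superovulated females were 7 weeks old. The Ago2 kd embryos had been injected as zygotes with siRNAs against the slicer Argonaute protein AGO2, and the study describes joint use of an antibody to the protein. A scrambled siRNA was the negative control of the methods, while the labels say only control and wild type for these embryos. The oocytes were not injected. The methods name ICR females for the oocytes and crosses of F1 mice for the embryos, whereas the labels name ICR throughout, so strain and stage cannot be told apart between oocytes and embryos. Ago2 was not analysed here, so the knockdown is taken from the labels. The sources used here do not say how many embryos each library held or whether replicates came from separate collections, so p-values measure the spread between libraries, which may be technical.

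The read depth is unknown because only FPKM were used. Summed FPKM were 450124 and 458874 in oocytes and between 178681 and 326352 in embryos, and mitochondrial genes took 2.02% to 2.23% of the sum in oocytes, 3.04% to 5.34% at the 2-cell stage and 5.22% to 13.0% at the 4-cell stage. The part of these shifts in the results below was not tested. Among genes above 10 FPKM in the other replicate, 14.6% lay below 0.1 FPKM in replicate 1 of the 4-cell Ago2 kd embryos, against 1.61% to 5.81% in the other 9 libraries. A single value of 0 was therefore read only as listed at 0. The housekeeping gene Gapdh was at most at 0.167 FPKM in any library. Actb, another, was at 91.1 and 1.61 FPKM in control 4-cell embryos and at 2.28 and 60.0 FPKM in Ago2 kd 4-cell embryos. Low values and wide replicate gaps thus also occurred in housekeeping genes. The oocyte markers Gdf9, Oosp1 and H1foo were at 2784 to 5754 FPKM in oocytes, and the 2-cell genes Tcstv3 and Zfp352 were at 96.5 to 306 FPKM in all 2-cell embryos. Not all markers behaved so, since Zp1 was listed at 0 and at 0.569 FPKM in oocytes, Zscan4d was listed at 0 in 3 of the 4 2-cell libraries, and Usp17la was listed at 0 and at 4.27 FPKM in the 2-cell Ago2 kd libraries. The 2-cell gene Tcstv1 was as high in oocytes (71.6 and 81.5 FPKM) as in 2-cell embryos (56.6 to 90.9 FPKM), and Tcstv3 was at 18.0 and 33.9 FPKM in oocytes. Of the cumulus and granulosa cell markers, Foxl2 was listed at 0 in all 10 libraries and Amhr2 was listed at 0 in the oocyte and 2-cell libraries and did not exceed 1.75 FPKM at the 4-cell stage, and the other 10 markers of that list were not analysed here.

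The genes lie on 5 chromosomes (GRCm38, GENCODE M21). Nlrp5 is at chr7:23385889-23441922 on the plus strand with 16 exons in its main transcript, and encodes an NLR family protein. Ooep, at chr9:78376109-78378725 on the minus strand with 3 exons, and Khdc3, at chr9:73101836-73104438 on the plus strand with 3 exons, encode KH domain proteins. Tle6 is at chr10:81590904-81601073 on the minus strand with 14 exons and encodes a member of the Groucho corepressor family. Padi6 is at chr4:140727355-140742643 on the minus strand with 16 exons and encodes a peptidylarginine deiminase family protein needed for the cytoplasmic lattices of the egg. Zbed3 is at chr13:95323612-95337841 on the plus strand with 2 exons and encodes a zinc finger protein. Khdc3 shares 790 of its 2050 annotated exon bases with the gene Gm20509 on the same strand (chr9:73102470-73117920). Gm20509 was not analysed here, and reads of this pair could be split in either way, so every Khdc3 value below carries that uncertainty.

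Genes of the egg are known to be switched on in the oocyte by basic helix-loop-helix factors such as FIGLA, whose binding site is the E-box CANNTG, and by homeobox factors such as NOBOX, which binds TAATTG. All 6 RefSeq promoters matched by symbol, and CANNTG (which reads the same on both strands) occurred in the 250 bases before the start of all 6, with 1 to 5 copies each, against 66.2% of 32851 promoters. The RefSeq start of Ooep lies 137 bases inside its GENCODE transcript, and its only copy lies in that stretch, with none in the 113 bases before the GENCODE start. TAATTG on either strand occurred before Ooep and before no other member (7.17% of promoters), and TATAAA before none (12.4%). These are matches of letters, not sites shown to be bound. The 150 bases before the RefSeq start of 3 of the genes are shown 5′ to 3′ on the gene's strand, with CANNTG in capitals. Nlrp5 (chr7:23385739-23385888, plus strand) was still present at the 2-cell stage and near 0 at the 4-cell stage. Khdc3 (chr9:73102248-73102397, plus strand) was low at the 2-cell stage and present again at the 4-cell stage. Padi6 (chr4:140742644-140742793, minus strand) was the most abundant in oocytes. Tle6, near 0 already in control 2-cell embryos, is not among those shown.
Nlrp5: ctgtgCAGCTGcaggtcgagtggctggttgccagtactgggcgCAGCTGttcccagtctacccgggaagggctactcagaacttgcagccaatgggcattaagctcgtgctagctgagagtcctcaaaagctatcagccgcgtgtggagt
Khdc3: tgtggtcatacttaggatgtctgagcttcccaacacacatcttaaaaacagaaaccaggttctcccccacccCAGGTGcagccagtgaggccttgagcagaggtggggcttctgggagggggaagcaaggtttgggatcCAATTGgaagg
Padi6: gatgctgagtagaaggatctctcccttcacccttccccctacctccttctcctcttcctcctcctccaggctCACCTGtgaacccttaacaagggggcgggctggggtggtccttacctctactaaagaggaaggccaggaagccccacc

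The stability and translation of maternal mRNAs depend on their 3′ UTRs, where AATAAA is the polyadenylation signal and TTTTAT a cytoplasmic polyadenylation element (written as DNA, searched on the transcript's strand). In the main GENCODE transcripts the 3′ UTRs were 109 bases long in Nlrp5, 130 in Tle6, 221 in Padi6, 246 in Khdc3, 1085 in Zbed3 and 1446 in Ooep, with a median of 875 over 6374 of the tested genes. AATAAA occurred in the last 40 bases of 5 of the 6 (62.1% of those genes), with Ooep the exception. TTTTAT occurred in the last 100 bases of Zbed3 and of no other member (15.1% of those genes), and within the whole 3′ UTR again in Zbed3 alone, with 4 copies (53.9% of genes). ATTTA, the core of AU-rich elements, was found in the 3′ UTR of 4 members, with 8 copies in Ooep and 1 each in Nlrp5, Khdc3 and Zbed3 (65.8% of genes). The last 30 bases of the 5 transcripts with the signal are given 5′ to 3′, since they show how Zbed3 differs, with AATAAA and TTTTAT in capitals.
Nlrp5: gaatgaAATAAAcacagcatttagaaaagc
Tle6: agttgcgtgtAATAAAacaattgaaatggc
Khdc3: ttaaagtattctAATAAAaaaaaaattgca
Padi6: agagccAATAAAgcatggtattctgaatgt
Zbed3: tttttttttAATAAAcTTTTATttatctgc

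In MII oocytes all 6 mRNAs were present and Padi6 was far above the others. Padi6 was at 801.7 FPKM in replicate 1 and 764.7 FPKM in replicate 2, which were ranks 75 and 85 of all genes. Ooep was at 302.7 and 127 FPKM, Zbed3 at 103 and 175 FPKM, and Tle6 at 169 and 66.5 FPKM. The ranges of these 3 genes overlapped, so their order does not exceed the spread between libraries. Khdc3 was at 33.9 and 75.2 FPKM and Nlrp5 at 25.8 and 46.2 FPKM, and these ranges overlapped too. Khdc3 also overlapped Tle6, while both Nlrp5 values lay below those of Padi6, Ooep, Zbed3 and Tle6. The 6 genes together made up 0.319% and 0.274% of the summed FPKM of the oocyte libraries. That share was 0.0996% and 0.102% in control 2-cell embryos, and 0.0278% and 0.0175% in control 4-cell embryos. Because each library is scaled to its own total, fewer molecules per embryo and a larger amount of other RNA cannot be told apart.

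**Figure D1:**
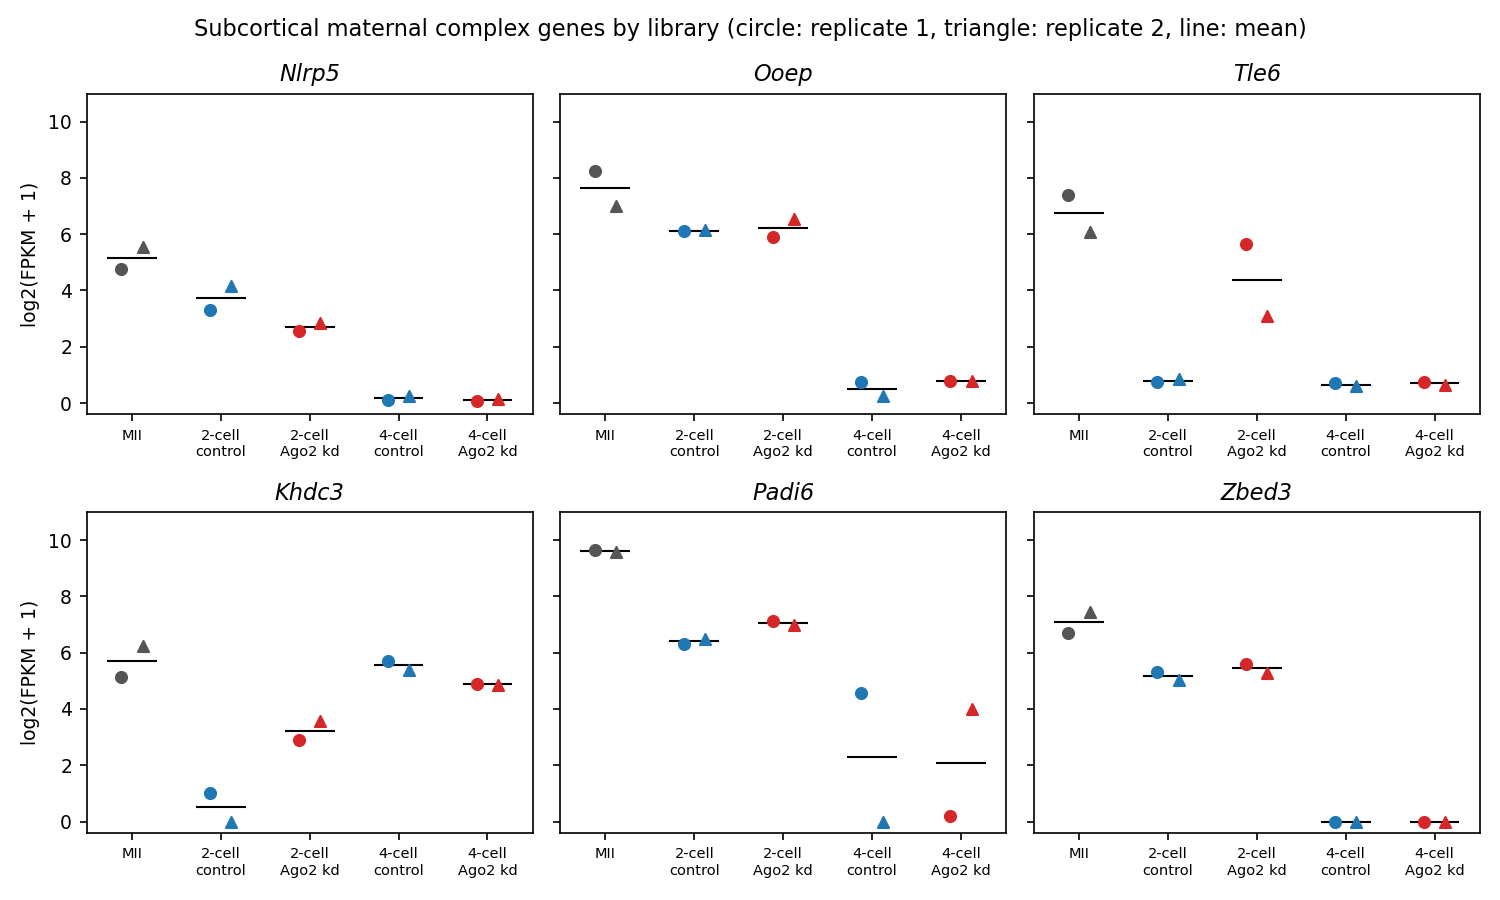
Level of each of the 6 genes in each library, as log2(FPKM + 1); grey points are MII oocytes, blue points control and red points Ago2 kd embryos, circles replicate 1, triangles replicate 2, and black lines group means. Khdc3 is low in control 2-cell embryos and high again in all 4-cell embryos, Tle6 is low in control but not in Ago2 kd 2-cell embryos, and Zbed3 is listed at 0 in all 4-cell libraries.

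The question behind the stage series was when maternal mRNAs are cleared relative to activation of the embryonic genome. Between oocytes and control 4-cell embryos 5 of the 6 mRNAs fell, and Khdc3 did not pass the test. The changes were measured with limma on log2(FPKM + 1), and a gene was called at an adjusted p below 0.05 (Benjamini-Hochberg over all tested genes). The same call was made for 26.3% of all tested genes, and for 45.8% of the 4674 tested genes above 2 FPKM in oocytes. The median change of the 6 genes was -6.58 log2 units against 0 for all tested genes.

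The falls passed the test at different steps. Tle6, Khdc3 and Zbed3 fell between oocytes and 2-cell embryos, Nlrp5, Ooep and Zbed3 fell between 2-cell and 4-cell embryos, and Khdc3 rose in that second step. In the first step 3 of the 6 were called lower and none higher, against 14.2% of all tested genes and 25.5% of those above 2 FPKM in oocytes called lower. At an unadjusted p of 0.05, the study's threshold for its knockdown comparisons, 5 of the 6 were lower (limma, 21.6% of all tested genes). That count was 3 with the libraries scaled to the same median and 2 after quantile normalization. For stages the study instead used differences above 1 in log2(FPKM + 1). The changes of the 6 in this step ran from -1.43 (Nlrp5) to -5.95 (Tle6). The median change of the 6 in this step was -2.56 log2 units, against -0.06 for all tested genes. In the second step 3 were lower, against 17.5% of all tested genes and 25.0% of those above 2 FPKM in oocytes, and 1 was higher, against 21.1% of all tested genes. The median change in the second step was -3.84 log2 units, against 0.24 for all tested genes. Both steps use the same control 2-cell libraries, so a deviation in these enters the 2 steps with opposite sign.

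Tle6 was already near 0 at the 2-cell stage. Its level went from 169 and 66.5 FPKM in oocytes to 0.672 and 0.805 FPKM in control 2-cell embryos and stayed at 0.642 and 0.510 FPKM in control 4-cell embryos. All 4 control embryo libraries lay below 1 FPKM, under 1% of the oocyte mean. The change to the 2-cell stage was -5.95 log2 units (SE 0.84, n = 2 libraries a group, adjusted p = 0.00363 from limma). The change from the 2-cell to the 4-cell stage was -0.14 (SE 0.84, adjusted p = 0.935). Mutations of human TLE6 are known to stop embryos at early cleavage.

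Khdc3, whose protein is known to guard the integrity of chromosomes during cleavage, took a course unlike any other member. It was at 33.9 and 75.2 FPKM in oocytes, at 1.01 FPKM and listed at 0 in control 2-cell embryos, and at 50.5 and 41.3 FPKM in control 4-cell embryos. The 2-cell libraries lay far below both other stages, and the 4-cell values fell between the oocyte values. The fall to the 2-cell stage was -5.19 log2 units (SE 0.54, adjusted p = 0.00112) and the rise to the 4-cell stage 5.04 (SE 0.54, adjusted p = 0.000655). Between oocytes and 4-cell embryos the difference was -0.14 (SE 0.54, adjusted p = 0.864), and its sign changed with the scaling of the libraries. Khdc3 ranked 1630 and 931 among all genes in oocytes, 5078 and 11104 in control 2-cell embryos, and 1027 and 1112 in control 4-cell embryos. The pattern of a called fall followed by a called rise was shared by 257 of the tested genes (2.95%). Rsl24d1, the downstream neighbour into which the overlapping Gm20509 extends, was listed at 0 in 8 libraries. It was at 50.6 FPKM in replicate 2 of the 2-cell Ago2 kd embryos and at 170 FPKM in replicate 2 of the 4-cell control embryos. How reads were assigned among these genes was not tested.

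Nlrp5 and Ooep, which encode core proteins of the complex with TLE6, were still present in control 2-cell embryos and fell to below 1 FPKM by the 4-cell stage. Nlrp5 was at 25.8 and 46.2 FPKM in oocytes, at 8.83 and 16.7 FPKM in control 2-cell embryos, and at 0.0771 and 0.175 FPKM in control 4-cell embryos. The groups did not overlap, and the control 2-cell embryos held 24.5% and 46.5% of the oocyte mean. The first step was -1.43 log2 units (SE 0.46, unadjusted p = 0.0172, adjusted p = 0.0714), short of the threshold, and the second -3.55 (SE 0.46, adjusted p = 0.00136). Ooep was at 68.6 and 69.5 FPKM in control 2-cell embryos, 31.9% and 32.3% of the oocyte mean, and at 0.693 and 0.186 FPKM in control 4-cell embryos. Its first step was -1.50 (SE 0.49, unadjusted p = 0.0193, adjusted p = 0.077) and its second -5.63 (SE 0.49, adjusted p = 0.00029). The first step of Ooep was -0.81 under median scaling and -0.36 under quantile normalization.

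Zbed3, reported to shape the spindle position and the distribution of the complex, fell at both steps. It was at 103 and 175 FPKM in oocytes, at 38.4 and 31.5 FPKM in control 2-cell embryos, and listed at 0 in all 4 libraries of the 4-cell stage, knockdown included. The first step was -1.92 log2 units (SE 0.38, adjusted p = 0.0131). That call was lost when the libraries were scaled to the same median (-1.23) or quantile normalized (-0.88), and without replicate 2 of the oocytes (-1.54) or of the control 2-cell embryos (-1.78). The second step passed the test (adjusted p = 0.00015), and no fold is given against a group at 0.

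Padi6 stood highest in oocytes and spread most among 4-cell libraries. It was at 78.1 and 89.4 FPKM in control 2-cell embryos, 9.97% and 11.4% of the oocyte mean, with a change of -3.21 log2 units (SE 1.62, adjusted p = 0.232). The same change was called when only the oocyte and control 2-cell libraries were fitted (adjusted p = 0.0051). In the 4-cell stage it was at 22.6 FPKM and listed at 0 in the controls, whereas the Ago2 kd libraries held 0.139 and 14.9 FPKM. The value of 0.139 FPKM was in replicate 1, the library with the many low values. In each 4-cell group a single library thus held most of the signal, with a replicate difference of 4.56 and 3.8 log2 units against medians of 0.547 and 0.842 for genes of at least 10 FPKM. This spread entered every Padi6 contrast, since the fit shares 1 variance per gene. The second step was -4.12 (SE 1.62, unadjusted p = 0.039, adjusted p = 0.0873), and it turned on the control 4-cell library used. It was -6.40 without replicate 1 of these (adjusted p = 0.0223, called) and -1.84 without replicate 2 (not called), and -4.75 after quantile normalization (called). From oocytes to 4-cell embryos Padi6 fell by 7.33 log2 units (SE 1.62, adjusted p = 0.00889).

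**Figure D2:**
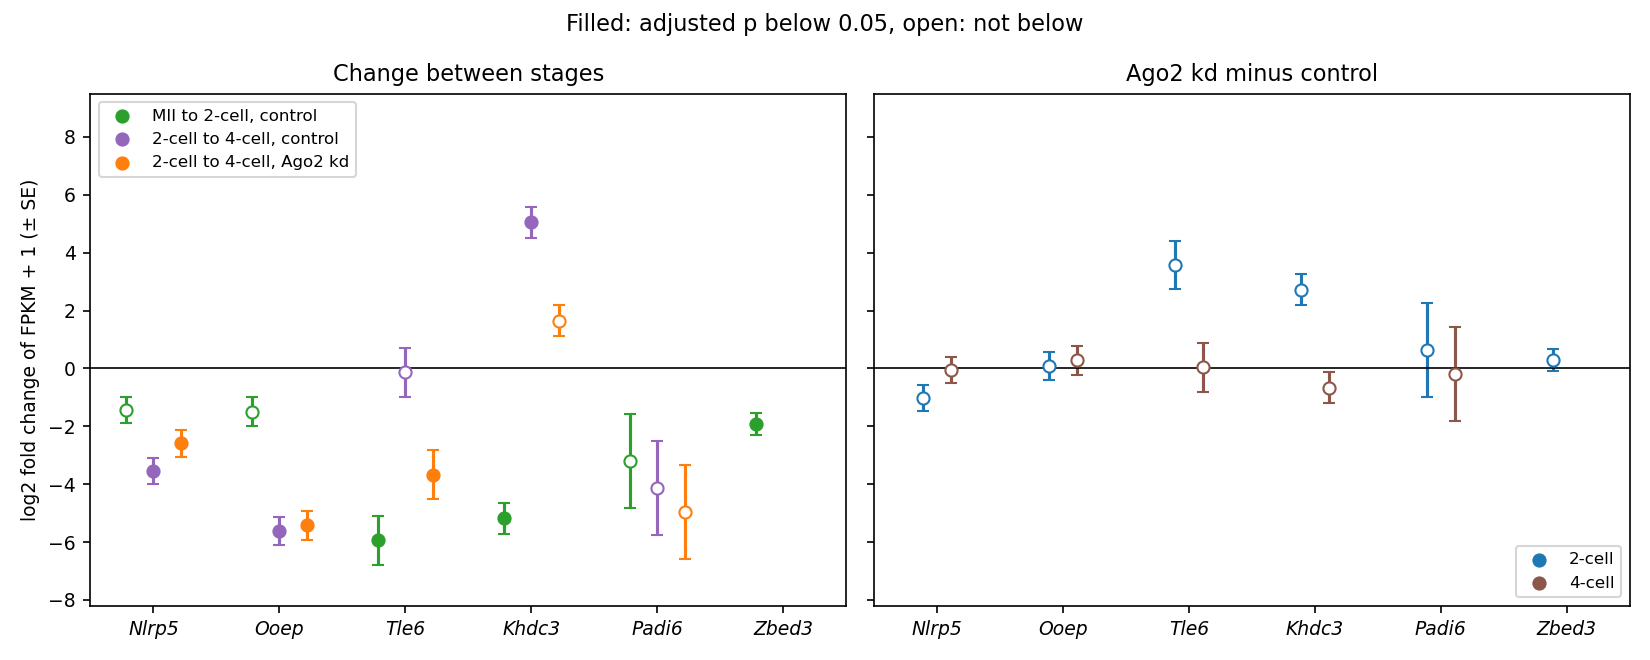
Changes of the 6 genes as log2 fold change of FPKM + 1 with SE, between stages on the left and between Ago2 kd and control embryos on the right; filled points passed an adjusted p of 0.05 and open points did not. Points for Zbed3 against 4-cell groups listed at 0 are left out. In the right panel every point is open, and Tle6 (3.58) and Khdc3 (2.72) at the 2-cell stage lie highest.

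The knockdown asked which maternal mRNAs persist when AGO2 is depleted. At the 2-cell stage none of the 6 genes was called by limma at an adjusted p below 0.05, in a comparison that called 0.550% of all tested genes in either direction. At an unadjusted p of 0.05, 2 of the 6 were higher in Ago2 kd embryos, Tle6 and Khdc3, against 2.96% of all tested genes, and none was lower. The median difference of the 6 was 0.46 log2 units against 0 for all tested genes. These are the 2 members that were near 0 in the control 2-cell libraries, which serve both as the reference of the knockdown and as the end of the first step.

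Khdc3 was at 1.01 FPKM and listed at 0 in control 2-cell embryos and at 6.36 and 10.9 FPKM in Ago2 kd 2-cell embryos. Both knockdown libraries lay above both controls and below both oocyte libraries, at 11.7% and 19.9% of the oocyte mean. The difference was 2.72 log2 units (SE 0.54, unadjusted p = 0.00155, adjusted p = 0.141). Tle6 was at 0.672 and 0.805 FPKM in control and at 49.4 and 7.52 FPKM in Ago2 kd 2-cell embryos, 41.9% and 6.38% of the oocyte mean. Both knockdown values lay above the controls, yet they differed from each other by 2.56 log2 units, against a median of 0.618 for genes of at least 10 FPKM in these libraries. The Tle6 difference was 3.58 (SE 0.84, unadjusted p = 0.00396, adjusted p = 0.236). It was 2.29 without replicate 1 of the knockdown libraries (adjusted p = 0.338) and 4.86 without replicate 2 (adjusted p = 0.041).

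The other 4 members differed less at the 2-cell stage. Padi6 reached 138 and 125 FPKM after the knockdown, above the 78.1 and 89.4 FPKM of the controls, with a difference of 0.65 log2 units (SE 1.62, adjusted p = 1). Nlrp5 reached 4.87 and 6.21 FPKM, below the 8.83 and 16.7 FPKM of the controls (-1.02, SE 0.46, unadjusted p = 0.0617, adjusted p = 0.922). Ooep, at 58.0 and 91.6 FPKM, and Zbed3, at 47.2 and 38.2 FPKM, overlapped their controls, with differences of 0.08 (SE 0.49) and 0.28 (SE 0.38).

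At the 4-cell stage none of the 6 genes was called by limma at an adjusted p below 0.05 (4.00% of all tested genes in either direction) or at an unadjusted p of 0.05 (15.4% of all tested genes). Khdc3 stood at 28.9 and 27.8 FPKM after the knockdown, both below the 50.5 and 41.3 FPKM of the controls. That difference was -0.67 log2 units (SE 0.54, unadjusted p = 0.254, adjusted p = 0.654), and -0.70 without replicate 1 of the knockdown libraries, the library with the many low values. Tle6 was at 0.696 and 0.551 FPKM in Ago2 kd embryos, back in the range below 1 FPKM of the controls. Nlrp5 did not exceed 0.175 FPKM and Ooep did not exceed 0.720 FPKM in any 4-cell library.

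The knockdown difference itself was compared between stages as an interaction, the 4-cell difference minus the 2-cell difference. By limma none of the 6 was called at an adjusted p below 0.05 (2.28% of all tested genes in either direction), and at an unadjusted p of 0.05 Khdc3 and Tle6 were lower (7.11% of all tested genes). The interaction of Khdc3 was -3.39 log2 units (SE 0.76, unadjusted p = 0.00309, adjusted p = 0.0882) and that of Tle6 -3.53 (SE 1.19, unadjusted p = 0.0213, adjusted p = 0.252). Within the Ago2 kd embryos, 4 of the 6 genes fell from the 2-cell to the 4-cell stage, against 16.5% of all tested genes. These were Nlrp5 (-2.59, SE 0.46, adjusted p = 0.00517), Ooep (-5.43, SE 0.49, adjusted p = 0.000441), Tle6 (-3.67, SE 0.84, adjusted p = 0.0144) and Zbed3 (adjusted p = 0.000163, to libraries listed at 0). The Tle6 call was lost without replicate 2 of the 4-cell Ago2 kd embryos (-3.61). It was also lost when only the groups compared were fitted (limma, adjusted p = 0.0605). Khdc3 (1.65, SE 0.54) and Padi6 (-4.96, SE 1.62) both had an adjusted p of 0.0523.

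**Figure D3:**
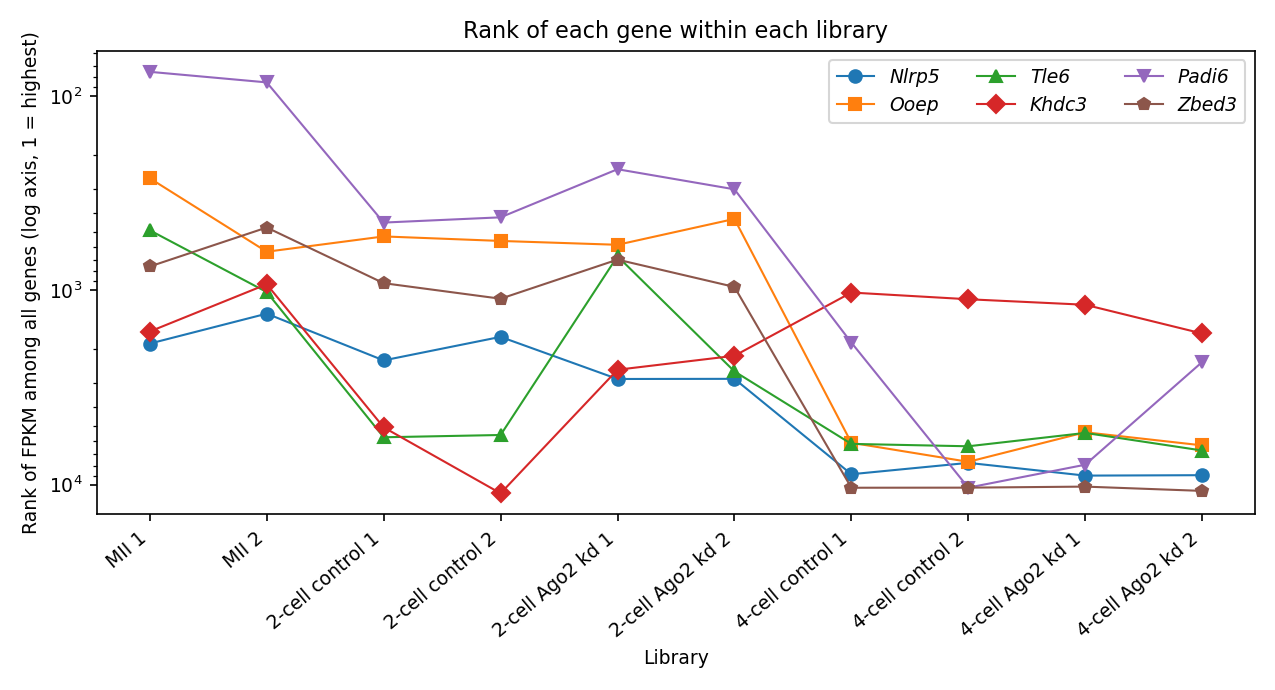
Rank of each gene by FPKM within each of the 10 libraries, on a log axis with the highest level at the top; the lines only join the points of a gene. Padi6 starts at ranks 75 and 85, Tle6 lies at 5712 and 5560 in control 2-cell embryos but at 668 and 2616 in Ago2 kd 2-cell embryos, and Khdc3 stays between 1027 and 1669 in all 4-cell libraries.

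Over the 10 libraries, which form 5 groups, the levels of Nlrp5, Ooep, Padi6 and Zbed3 went most closely together, with Tle6 and Khdc3 apart from them. Pearson's r of log2(FPKM + 1) was 0.984 between Ooep and Zbed3 and 0.962 between Nlrp5 and Zbed3, and between 0.693 and 0.757 for Tle6 with the other 4 of these genes. Khdc3 had r between -0.383 and 0.253 with the other members. The points share libraries and stages, so these values only describe likeness. The genes below were picked by r over these same libraries. Any course, knockdown difference or replicate gap they share with a member comes with that choice and is no separate result. The genes most like Nlrp5 were Emp2 (r = 0.993), Trav7-6 (0.988) and Fbxw22 (0.987), and those most like Ooep were Rnf14 (0.996), Stradb (0.994) and Zfp813-ps (0.994). For Zbed3 they were Eif4e3 (0.998), Zc4h2 (0.998) and Tcaim (0.997), all listed at 0 in the 4 libraries of the 4-cell stage, as Zbed3 was. For Padi6 they were Armc10 (0.991), Stard3nl (0.99) and Nlrp14 (0.988). Chosen over the same libraries, these 3 shared the replicate gap of Padi6. They were higher in replicate 1 of the control and replicate 2 of the Ago2 kd 4-cell embryos than in the group's other library. Stard3nl, for example, was at 10.2 and 15.4 FPKM in those 2 libraries and at 0.570 and 0.601 FPKM in the others. The most similar genes to Tle6 were Sema4d (0.981), Nudcd1 (0.977) and Btbd9 (0.977). Sema4d was at 44.3 and 17.6 FPKM in oocytes, at 0.116 and 0.0521 FPKM in control and at 5.67 and 3.78 FPKM in Ago2 kd 2-cell embryos. Its higher level with the knockdown at that stage comes with its choice by likeness to Tle6. The most similar genes to Khdc3 were Exosc9 (0.944), Eri1 (0.938) and Farsa (0.928). Exosc9, a subunit of the RNA exosome, was at 35.0 and 49.9 FPKM in oocytes, 1.35 and 1.11 FPKM in control 2-cell embryos, 9.91 and 5.99 FPKM in Ago2 kd 2-cell embryos, and 27.4 and 16.3 FPKM in control 4-cell embryos.

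The partners of the complex and of the cytoplasmic lattices, a list of 6 genes of which 5 were tested, moved in several directions. From oocytes to 4-cell embryos 3 of the 5 fell (Nlrp2, Nlrp4f and Nlrp14) and 1 rose (Cfl1), against 26.3% of all tested genes called lower and 22% called higher, with a list median of -4.86 log2 units against 0 for all tested genes. Nlrp14, an NLR protein of the oocyte, was at 1448 and 1239 FPKM in oocytes, above Padi6, at 263 and 200.2 FPKM in control 2-cell embryos, and at 21.9 FPKM and listed at 0 in control 4-cell embryos. Its change from the 2-cell to the 4-cell stage was -5.59 (SE 1.77, adjusted p = 0.0436), a call lost without any single oocyte or 2-cell library or without replicate 2 of the control 4-cell embryos (adjusted p from 0.0665 to 0.193). It was also lost with a pseudocount of 0.1, without the filter on low values, with the replicate block and with only the groups compared (adjusted p from 0.064 to 0.103). Nlrp4f, a paralog in the complex, was at 598 and 469 FPKM in oocytes, then 403 and 290 FPKM in control 2-cell embryos, and was listed at 0 in all 4-cell libraries (adjusted p = 5.73e-05 for the second step). Nlrp2 was at 47.9 and 16.2 FPKM in oocytes, at 6.67 FPKM and listed at 0 in control 2-cell embryos, and at 0 in all 4-cell libraries (adjusted p = 0.021 from oocyte to 4-cell embryo). That call was lost without replicate 1 of the oocytes (adjusted p = 0.108) and without replicate 1 or 2 of the control 4-cell embryos (0.0752 and 0.0751).

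Cfl1, the actin-severing protein cofilin, whose activity the complex is known to govern, ran against these genes. It was at 109 and 227 FPKM in oocytes, 1121 and 984 FPKM in control 2-cell embryos, and 632 and 669 FPKM in control 4-cell embryos, and rose by 2.73 log2 units in the first step (SE 0.36, adjusted p = 0.00257). Ube2d3, a ubiquitin-conjugating enzyme, was at 3.95 and 4.82 FPKM in oocytes, then 1.36 and 0.866 FPKM in control 2-cell embryos (-1.36, SE 0.35, adjusted p = 0.0337). The Ube2d3 call was lost under both scalings, with the replicate block and without either oocyte or either control 2-cell library (adjusted p from 0.0543 to 0.211). Uhrf1, a cofactor of maintenance DNA methylation, did not exceed 0.132 FPKM in any library and was not tested. None of the 5 tested partners was called by limma after the knockdown at either stage, also at an unadjusted p of 0.05. Of all tested genes, 0.550% were called at the 2-cell and 4.00% at the 4-cell stage. At the unadjusted threshold 2.96% were higher and 3% lower at the 2-cell stage, and 15.4% differed in either direction at the 4-cell stage. Nlrp14 was at 464 and 454 FPKM in Ago2 kd 2-cell embryos, above both controls, as Padi6 was.

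**Figure D4:**
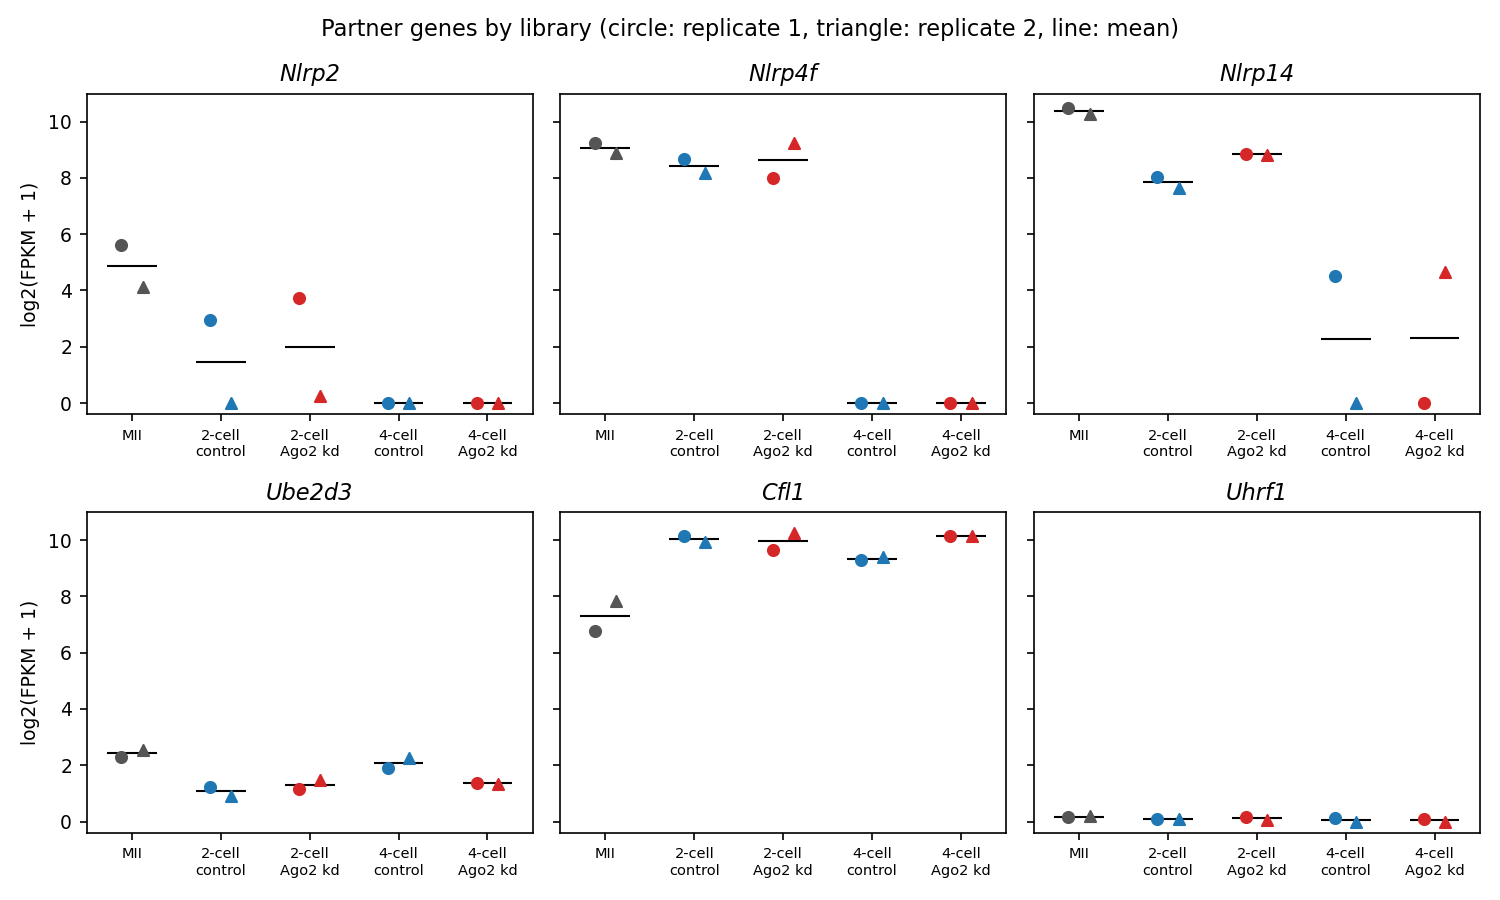
Level of the 6 partner genes in each library, as log2(FPKM + 1); grey points are MII oocytes, blue points control and red points Ago2 kd embryos, circles replicate 1, triangles replicate 2, and black lines group means. Cfl1 is higher in all embryos (632 to 1222 FPKM) than in oocytes, Nlrp2 and Nlrp4f are listed at 0 in all 4-cell libraries, and Uhrf1 is near 0 throughout.

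Among the family paralogs of the members, 8 of 17 listed genes had a row used here and 5 were tested. From oocytes to 4-cell embryos 2 of these fell (Khdc1b and Khdc1c) and 1 rose (Dppa5a), against 26.3% of all tested genes called lower and 22% called higher. The median of the 5 was -0.99 against 0 for all tested genes. None was called after the knockdown (0.550% of all tested genes at the 2-cell and 4.00% at the 4-cell stage). Khdc1b, a KH domain paralog of Khdc3 and Ooep, was at 2961 and 2699 FPKM in oocytes, 1666 and 1642 FPKM in control 2-cell embryos, and 30.2 and 35.9 FPKM in control 4-cell embryos, and fell by 5.61 log2 units in the second step (SE 0.29, adjusted p = 5.56e-05). Dppa5a, another KH domain gene, was at 1.60 FPKM and listed at 0 in oocytes and at 93.2 and 65.1 FPKM in control 4-cell embryos (4.64 in the second step, SE 1.09, adjusted p = 0.015). Close copies can share reads, and the pseudogene Nlrp5-ps was listed at 0 in all libraries but replicate 2 of the control 4-cell embryos (0.535 FPKM).

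Many oocyte and maternal-effect genes outside the complex also fell over these stages. Of 12 tested maternal-effect genes (17 listed), 7 fell and 1 rose from oocytes to 4-cell embryos, with a median of -4.26 log2 units, and all 7 tested oocyte markers fell, with a median of -9.03. These compare with 26.3% of all tested genes called lower and 22% called higher. In the first step 5 maternal-effect genes and 3 oocyte markers fell (14.2% of all tested genes were called lower) and the maternal-effect gene Ube2a rose. Gdf9, the oocyte growth factor, was at 3248 and 3889 FPKM in oocytes, 143 and 127 FPKM in control 2-cell embryos and 5.40 and 1.13 FPKM in control 4-cell embryos. Bmp15, its partner, was at 605 and 449 FPKM in oocytes, then 787 and 436 FPKM in control 2-cell embryos, and was listed at 0 in all 4-cell libraries. Of the 4 tested 2-cell genes (8 listed), 3 rose in the first step and all 4 fell in the second. Of all tested genes, 6.54% were called higher in the first step and 17.5% lower in the second. After the knockdown at the 2-cell stage none of the tested genes of these 3 lists was called by limma (0.550% of all tested genes). At an unadjusted p of 0.05 the maternal-effect genes Trim28 and Hsf1 were higher and the 2-cell genes Tcstv3 and Usp17la lower. At that threshold 2.96% of all tested genes were higher and 3% lower. At the 4-cell stage Trim28 was called lower after the knockdown, Npm2, Hsf1 and Tcstv3 were called higher, and no oocyte marker was called. Of all tested genes, 2.77% were called lower and 1.23% higher there. Trim28, Hsf1, Usp17la, Ube2a, Zp1, Gapdh and Actb were named after their values were seen.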

How the data were processed

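RNA-seq of 10 libraries in 5 groups of 2 was analysed, grouped by stage, knockdown and replicate number as the labels give them. The labels give no date or batch. According to the methods and the processing notes, the authors used FastQC and Trim Galore for quality and trimming, aligned reads with HISAT2 2.1.0 to GRCm38.p6 (mm10), and computed FPKM with StringTie; CASAVA 1.4 is also listed. The deposited FPKM were used, with 21437 gene names as rows and the libraries as columns. How transcripts were reduced to 1 value per name, and how the RNA was selected, is not given in the sources used here. Read depth and counting error are therefore unknown, and precision was judged from replicates.

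FPKM were analysed as log2(FPKM + 1), a scale that understates changes of low genes, with limma 3.58.1 in R 4.3.3. The fit held 5 group means over all 10 libraries (5 residual degrees of freedom, empirical Bayes with trend, prior degrees of freedom 1.89) for the 8726 genes that reached 1 FPKM in 2 or more libraries, with two-sided tests and Benjamini-Hochberg adjustment over all of them. A gene was called at an adjusted p below 0.05. The scripts were tested on simulated data. An exact permutation test of 2 against 2 libraries cannot go below 0.333 and was not used. Positions, exons and 3′ UTRs came from GENCODE M21 and promoters from RefSeq (GRCm38.p6), the same build as the files. Python 3.11.15 and matplotlib 3.10.9 were used for tables and figures.

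The members and gene lists were chosen with earlier results of these data known. The text names the 6 members, every partner gene and at most 4 genes of each other list, from those of highest mean FPKM. For each member it also names the 3 tested genes with the highest Pearson r, leaving out Gm and Rik names. Exceptions to this rule are Trim28, Hsf1, Usp17la, Ube2a, Zp1, Figla, Rsl24d1, Nlrp5-ps, Gapdh and Actb. Alternatives were a pseudocount of 0.1, no filter or at least 5 FPKM in 2 libraries, median scaling, quantile normalization, the replicate number as a block, only the groups compared, no variance trend, and leaving out each library in turn. Ago2, the counts and the authors' DESeq2 tests were not analysed here.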

Additional observations from a re-analysis of the deposited data

Results flagged for a closer look

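Khdc3 was flagged because its 2 knockdown differences had opposite directions. At the 2-cell stage both Ago2 kd libraries (6.36 and 10.9 FPKM) lay above both controls (1.01 FPKM and listed at 0), and at the 4-cell stage both (28.9 and 27.8 FPKM) lay below both controls (50.5 and 41.3 FPKM). The 4-cell difference minus the 2-cell difference was -3.39 log2 units (limma, unadjusted p = 0.00309, adjusted p = 0.0882), which did not pass the threshold over all tested genes. The 4-cell difference alone had an unadjusted p of 0.254 (limma). The share of all tested genes with such opposite differences was not computed, so how unusual the pattern is remains unknown. Groups of 2 libraries could not be examined for outlying libraries.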

How the results depend on the processing

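The number of members called stayed the same or moved by at most 1.5 times in each comparison under the alternatives tried, except after leaving out a library: without single libraries the 2-cell knockdown comparison called between 0 and 1 members, the 1 being Tle6 without replicate 2 of the Ago2 kd embryos. For the first control step the count was 3 in the fit reported, 2 under median scaling and under quantile normalization, and 4 with only the groups compared. For the 2-cell to 4-cell step of Ago2 kd embryos it was 4, and 6 with at least 5 FPKM required, 5 without the variance trend and 3 with only the groups compared. A few small differences changed sign, and the cause was not tested. Nlrp4f in the first control step was 0.061 under median scaling and 0.50 under quantile normalization, and Khdc3 between oocytes and 4-cell embryos 0.11 and 0.30. Padi6 in the 4-cell knockdown comparison was 0.33 with a pseudocount of 0.1. Leaving out single libraries moved Khdc3 between oocytes and 4-cell embryos from -0.71 to 0.42, and the 4-cell knockdown differences from -2.47 to 2.09 for Padi6, -0.12 to 0.0073 for Nlrp5 and -0.022 to 0.11 for Tle6. It moved the 2-cell knockdown difference of Ooep from -0.25 to 0.40, and the interaction from -0.12 to 0.53 for Ooep and -3.12 to 1.44 for Padi6. Where 1 library is left in a group, it is assumed to vary like the other groups. The median change of all tested genes from 2-cell to 4-cell control embryos was 0.24, and 0.01 after median scaling.

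Libraries with the same replicate number did not deviate together (r from -0.093 to 0.0924 over 10 pairs of groups). This cannot show whether they shared a collection or preparation, since each group holds only 2 libraries. With the replicate block the counts of members called were 3, 4 and 5 in the 3 control comparisons and 0 in both knockdown comparisons, as without it. Depth is unknown, so levels near 0 could not be given a limit of detection.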

Other observations

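Of the transcription factors that are known to switch on genes of the oocyte, 9 were listed and 5 tested. None of these 5 was called between oocytes and control 2-cell embryos, where 14.2% of all tested genes were called lower and 6.54% higher. Between the 2-cell and the 4-cell stage 2 fell (17.5% of all tested genes were called lower). Between oocytes and 4-cell embryos 4 fell (26.3%), with a median of -4.81 log2 units over that span. Nobox, which binds TAATTG, was at 45.8 and 51.7 FPKM in oocytes, then 40.6 and 35.9 FPKM in control 2-cell embryos, and was listed at 0 in all 4-cell libraries. Lhx8, another homeobox factor, was at 44.9 and 73.8 FPKM in oocytes, then 72.7 and 89.5 FPKM in control 2-cell embryos, and did not exceed 1.30 FPKM in any 4-cell library. Figla did not exceed 0.637 FPKM in any library and was not tested. None of the 5 was called by limma after the knockdown at either stage, also at an unadjusted p of 0.05. Of all tested genes, 0.550% were called at the 2-cell and 4.00% at the 4-cell stage. At the unadjusted threshold 2.96% were higher and 3% lower at the 2-cell stage, and 15.4% differed in either direction at the 4-cell stage.

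Trim28, a corepressor needed from the mother for imprint maintenance, was singled out after its values were seen, because its course resembled that of Khdc3. It was at 29.0 and 29.3 FPKM in oocytes, 0.698 and 1.64 FPKM in control 2-cell embryos, and 35.8 and 63.6 FPKM in control 4-cell embryos. In Ago2 kd embryos it was at 6.82 and 12.0 FPKM at the 2-cell stage (2.25 log2 units against control, SE 0.60, adjusted p = 0.329) and at 7.22 and 2.04 FPKM at the 4-cell stage (-3.29, SE 0.60, adjusted p = 0.0316, limma).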
